A study of Mus musculus with 5 samples.

Results

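The cells described here are the alpha cells of islets from pregnant and postpartum mice, 394 cells among 3840 in the pregnant and postpartum libraries and 4687 in the whole series. They were selected on their own hormone transcripts: glucagon (Gcg) had to make up at least 10% of the transcripts of a cell, to exceed 5 times the sum of both insulin genes (Ins1 and Ins2), and to exceed somatostatin (Sst) and pancreatic polypeptide (Ppy). The study set out to compare islets in pregnancy and after birth with those of non-pregnant females. Islets of C57BL/6 mice were dissociated, and viable cells were taken through inDrop, a droplet method that tags each captured polyadenylated RNA molecule with a unique molecular identifier (UMI). The groups used here are pregnant (libraries pregnant 1 and pregnant 2) and postpartum (libraries postpartum 1 and postpartum 2). No genetic change or drug is named for either. The labels give no day of gestation, no time after birth, no age and no number of animals behind a library. Nothing says that the libraries of a group came from separate mice, so the p-values below do not measure the spread between mice. They rest on the spread between libraries, which the test took partly or wholly from other genes. The single non-pregnant library is on another scale and was not used. The labels name no sorting by cell type, and all endocrine types of the islet entered the same libraries.

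Alpha cells lie mostly at the rim of the mouse islet and secrete glucagon, which raises hepatic glucose output when blood glucose falls and is also released in answer to amino acids. They cut proglucagon with the convertase Pcsk2 and keep the beta-cell factors Pdx1 and Nkx6-1 off. In pregnancy, placental lactogen and prolactin act through the prolactin receptor Prlr, and the response best known in islets is that of beta cells.

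Pregnant 2 stood apart from the other libraries. Its 20 alpha cells gave 2010 UMIs, against 55794 in the 109 cells of pregnant 1, 28718 in the 105 cells of postpartum 1 and 111133 in the 160 cells of postpartum 2. In pregnant 2, 172 non-hormone genes were detected in alpha cells, against 3371 to 5336 elsewhere, and 21.8% of its detections of a gene in a cell held 10 or more UMIs, against 0.207% to 0.925% elsewhere. Levels are given as counts per 1000000 (CPM) of the non-hormone UMIs summed over the alpha cells of a library, which numbered 27755, 1121, 11014 and 43372 in the order pregnant 1, pregnant 2, postpartum 1, postpartum 2. That order is kept for every list of 4 values. Where no UMI was found, a level of up to 108, 2676, 272 and 69.2 CPM remains possible (3 counts; this limit and all intervals cover counting error only), so most genes at 0 in pregnant 2 were not measurable there. The median alpha cell held 483, 91, 241 and 658 UMIs, so the postpartum libraries lay on both sides of pregnant 1 in depth. No 2 cells had an identical profile. The columns of the files are numbered and not named by barcode, so shared barcodes could not be counted.

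The markers bore out the name alpha cell in 3 libraries. Of the 5 markers given for these cells, Gcg chose the cells and is no test. Ttr, which encodes the thyroid hormone and retinol carrier transthyretin, had 591, 16, 750 and 2891 UMIs. Kcnk3 (chr5:30588170-30625270), an acid-sensitive two-pore potassium channel, had 32, 0, 6 and 10 UMIs, and Sfrp5 (chr19:42197971-42202252), a secreted Wnt antagonist, had 11, 0, 7 and 14. Pappa2 (chr1:158711727-158960451), a protease that cleaves insulin-like growth factor binding proteins, had 4, 0, 26 and 93. In pregnant 1 that was 144 CPM, against 78.3 in beta cells. In pregnant 2 only Ttr and Irx2 of the 16 measured alpha markers other than Gcg had a UMI, so its cells rest on Gcg and Ttr, and Ttr was seen in 4 of its 20 cells.

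Transcripts of other cell types were present at different levels. Ductal markers summed to 2306, 0, 1634 and 2375 CPM in alpha cells against 2497, 970, 876 and 1680 in beta cells. Delta markers other than Sst, mostly Rbp4, summed to 1513, 0, 999 and 715 CPM against 943, 0, 425 and 616, and gamma markers other than Ppy and Pyy to 865, 0, 363 and 922 against 843, 0, 770 and 829. The beta-cell glucose transporter Slc2a2 and the channel Trpm5 were at 0 in the alpha cells of all 4 libraries, and the beta markers without the hormones summed to 1045, 0, 1725 and 1429 CPM in alpha cells against 10298, 15322, 19520 and 19754 in beta cells. Acinar markers summed to 108, 0, 272 and 231 CPM, endothelial markers to 0, 892, 0 and 46.1, and macrophage markers to 360, 0, 363 and 161. Ins2 still made up 0.608%, 0.199%, 0.4% and 0.639% of the UMIs of alpha cells, and its source there was not tested.

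Alpha cells made up 5.47% of pregnant 1 (exact binomial 95% interval 4.51 to 6.56), 12.2% of pregnant 2 (7.61 to 18.2), 18.9% of postpartum 1 (15.7 to 22.4) and 14.2% of postpartum 2 (12.2 to 16.4). The interval of pregnant 1 lay below the other 3, and the interval of pregnant 2 overlapped both postpartum ones. Since the rule asks for a share of glucagon, this share falls where glucagon is low within cells as well as where alpha cells are few. With 2 libraries a group no exact permutation test can pass 0.05, and none was made. Few cells lay near the limits: 3, 1, 0 and 0 cells held 10 to 12% glucagon (11.2% and 10% in pregnant 1 and 2), and 4, 2, 1 and 0 cells that met the other conditions held 8 to 10% (8.66%, 8.93% and 8.49% where there were any). A further 37, 1, 23 and 43 cells held enough glucagon but failed on insulin alone.

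Glucagon transcripts took a smaller share in pregnant than in postpartum alpha cells. Gcg made up 27.8%, 35.7%, 50.4% and 45.7% of all alpha-cell UMIs, and both postpartum libraries lay above both pregnant ones. Across cells the median was 27.7% in pregnant 1 (10.8 to 50), 32.4% in pregnant 2 (10 to 66.7), 49% in postpartum 1 (17.7 to 71.5) and 47.3% in postpartum 2 (13.1 to 72.9). Gcg chose the cells, so this is a description and has no test. The insulin share of beta cells, chosen by the mirror rule, was also lower in both pregnant libraries, with Ins2 at 18%, 22.8%, 31.5% and 39% of beta-cell UMIs. The ribosomal RNA precursor Rn45s took 5.34%, 0.0498%, 1.16% and 2.59% of alpha-cell UMIs, so pregnant 1 was high and pregnant 2 near 0. Its part in the glucagon share was not tested.

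The promoter of Gcg (gene at chr2:62474530-62483653), the gene that defines these cells, is shown from 250 bases before to 50 bases after the start, chr2:62483604-62483903, minus strand, RefSeq GRCm38.p6. Capitals mark matches to the TATA box letters TATAAA on either strand, which 13.6% of all 32851 promoters of this length hold.
Gcg: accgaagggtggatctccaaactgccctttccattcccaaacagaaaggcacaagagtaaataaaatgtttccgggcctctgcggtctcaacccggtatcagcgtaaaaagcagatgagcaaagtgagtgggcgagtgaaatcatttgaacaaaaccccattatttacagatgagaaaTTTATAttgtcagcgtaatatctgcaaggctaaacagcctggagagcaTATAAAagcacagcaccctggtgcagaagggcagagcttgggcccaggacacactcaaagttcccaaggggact

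Peptide YY (Pyy), a gut and islet peptide that some alpha cells carry, varied among the alpha cells. Pyy took 4.49%, 1.49%, 1.73% and 2.36% of alpha-cell UMIs, highest in pregnant 1. In beta cells it took 1.01%, 0.0931%, 0.145% and 0.287%, also highest in pregnant 1, so that excess was not particular to alpha cells. Its source was not tested. It reached 5% or more in 36 of 109, 2 of 20, 8 of 105 and 22 of 160 cells. Ppy, the gamma-cell hormone, reached 5% in 7, 1, 3 and 8 cells and was limited by the rule. Cells richer in glucagon tended to hold a smaller share of Pyy, with Spearman rho of -0.18, -0.18, -0.43 and -0.36 over the cells of each library. The 2 shares have the same denominator, which by itself pulls such a value below 0.

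**Figure D1:**
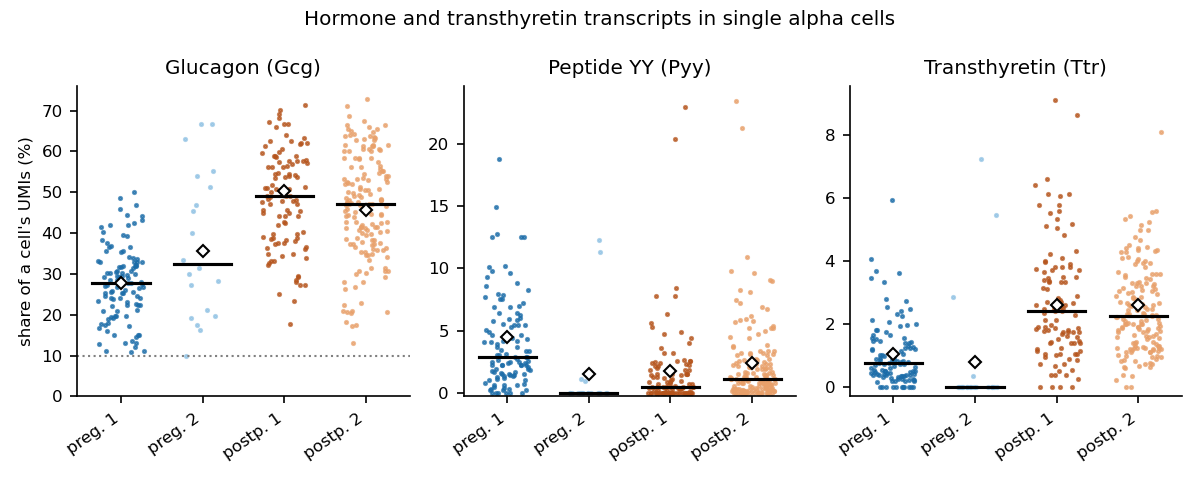
Share of the UMIs of each alpha cell (y axis, %) on Gcg, Pyy and Ttr, by library; each point is 1 cell, the black bar is the median over cells and the diamond the share of the pooled UMIs. The dotted line is the 10% limit of the rule. The diamonds for Gcg sit at 27.8% and 35.7% in pregnancy and at 50.4% and 45.7% postpartum, and most cells of pregnant 2 held no Ttr or Pyy.

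Within libraries, alpha cells stood above beta cells in a small group of genes led by Ttr. Because the rule split these cells by their hormones, the contrast is described and not tested. Of 824 genes with at least 20 alpha-cell UMIs, 35 were higher in alpha cells by 1 or more on the log2(CPM + 100) scale in each of pregnant 1, postpartum 1 and postpartum 2 (4.25%). Among the 12 with the highest smallest difference were Ttr, Gpx3, Etv1, Eef1a2, Sfrp5, Gria2, Rbp4, Smarca1, Kcnk3, Slc7a2 and Gnas. Pregnant 2 was left out of this ranking, since its alpha cells held UMIs of only 3 of those named, Ttr, Gpx3 and Gnas.

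Among the secreted products, Gpx3, an extracellular glutathione peroxidase, was at 5116, 6244, 2724 and 3113 CPM in alpha cells against 638, 0, 186 and 263 in beta cells. The pregnant 2 value of Gpx3 came from 7 UMIs of 1 cell. The retinol carrier Rbp4, which is also a delta-cell marker, was at 1477, 0, 999 and 669 CPM against 432, 0, 79.7 and 151. The ETS transcription factor Etv1 was at 1081, 0, 1453 and 715 CPM against 98.4, 0, 26.6 and 67.2 in beta cells. Its lead over beta cells in the 3 deeper libraries is what the ranking picked, and its pregnant 1 value lay between the postpartum ones.

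The channel and transport genes showed the same. Kcnk3 exceeded beta cells by 2.97, 2.69 and 1.5 log2 units in pregnant 1, postpartum 1 and postpartum 2. Gria2, an AMPA-type glutamate receptor subunit, exceeded them by 1.58, 2.13 and 2.19, and Slc7a2, a carrier of cationic amino acids, by 1.5, 1.83 and 1.73. Gnas, the stimulatory G-protein subunit that couples receptors to cyclic AMP, was far more abundant, at 16213, 35682, 9987 and 13211 CPM against 4497, 2715, 3479 and 3634 in beta cells. The pregnant 2 value of Gnas came from 40 UMIs in 4 cells, 23 of them in 1 cell. Pcsk2, the proglucagon convertase, was at 19024, 16057, 21790 and 28867 CPM. It was about 1 log2 unit above beta cells in pregnant 1, postpartum 1 and postpartum 2 (1.07, 0.94 and 1.02). In pregnant 2 the difference was 0.72, and 1 cell held 15 of the 18 Pcsk2 UMIs.

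**Figure D2:**
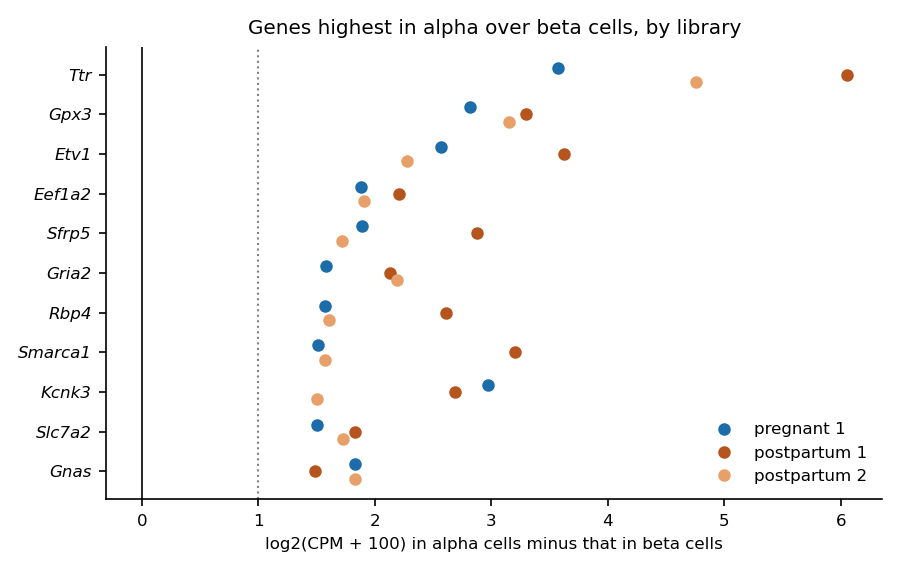
Difference of log2(CPM + 100) between alpha and beta cells of the same library (x axis) for 11 of the 12 genes with the highest smallest difference (y axis); each point is 1 library, and pregnant 2 is left out. The dotted line marks 1 log2 unit. All points lie to its right, and Ttr reaches 3.57, 6.05 and 4.76.

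The comparison of postpartum with pregnant alpha cells had 1 gene past the threshold. Tested were 1729 genes whose mean CPM reached 100, and limma called 1 of them (0.0578%; Benjamini-Hochberg adjustment, limit 0.05), and 24 had an unadjusted p under 0.05. Ttr stood at 21293 CPM in pregnant 1, 14273 in pregnant 2, 68095 in postpartum 1 and 66656 in postpartum 2. Both postpartum values lay well above both pregnant ones. Ttr rose by 1.94 ± 0.17 (SE, n = 2 against 2 libraries, limma adjusted p = 7.89e-28) on the log2(CPM + 100) scale.

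The error of that value was set by other genes. The fit gave the trend over genes infinite weight and extended it to Ttr, the most abundant gene tested, so the very small p rests on the trend. With the prior held flat over expression the same difference had an SE of 1.23 and an adjusted p of 0.864, and no gene was called. With pregnant 2 left out the rise was 1.66 ± 0.09 (limma adjusted p = 0.0327), again the single call, now of 2290 genes tested (0.0437%). In every fit without pregnant 2 the spread comes from the 2 postpartum libraries alone, and pregnant 1 is assumed to vary as they do. Against pregnant 1 alone the pooled Ttr level was 3.2 times as high in postpartum 1 (95% counting interval 2.87 to 3.57) and 3.13 times in postpartum 2 (2.86 to 3.43).

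Ttr was also seen in more cells after birth. It was found in 89.9%, 20%, 96.2% and 98.8% of alpha cells, and, when each cell was thinned to 100 UMIs, in 54.7%, 19.4%, 85.2% and 85.3% (13 of 20 cells of pregnant 2 were too shallow and left out, none elsewhere). In beta cells, which should hold little of it, the thinned share was 7.34%, 0%, 3.16% and 6.23%. As a share of all UMIs, glucagon included, Ttr was at 1.06%, 0.796%, 2.61% and 2.6%. With glucagon kept in the denominator the log2 difference was 1.49 (limma adjusted p = 3.13e-18, under the same trend). Beta cells held 1700, 0, 930 and 2363 CPM of Ttr, with no order by group. With all libraries, the change of Ttr in alpha cells minus that in beta cells was 0.04 with an SE of 3394.81. With the prior held flat the SE was 1.38 (limma adjusted p = 0.992), so the trend set the larger error. Beta cells of pregnant 2 had no Ttr UMI, and without that library the difference was 1.83. These fits cannot decide whether the change was particular to alpha cells.

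**Figure D3:**
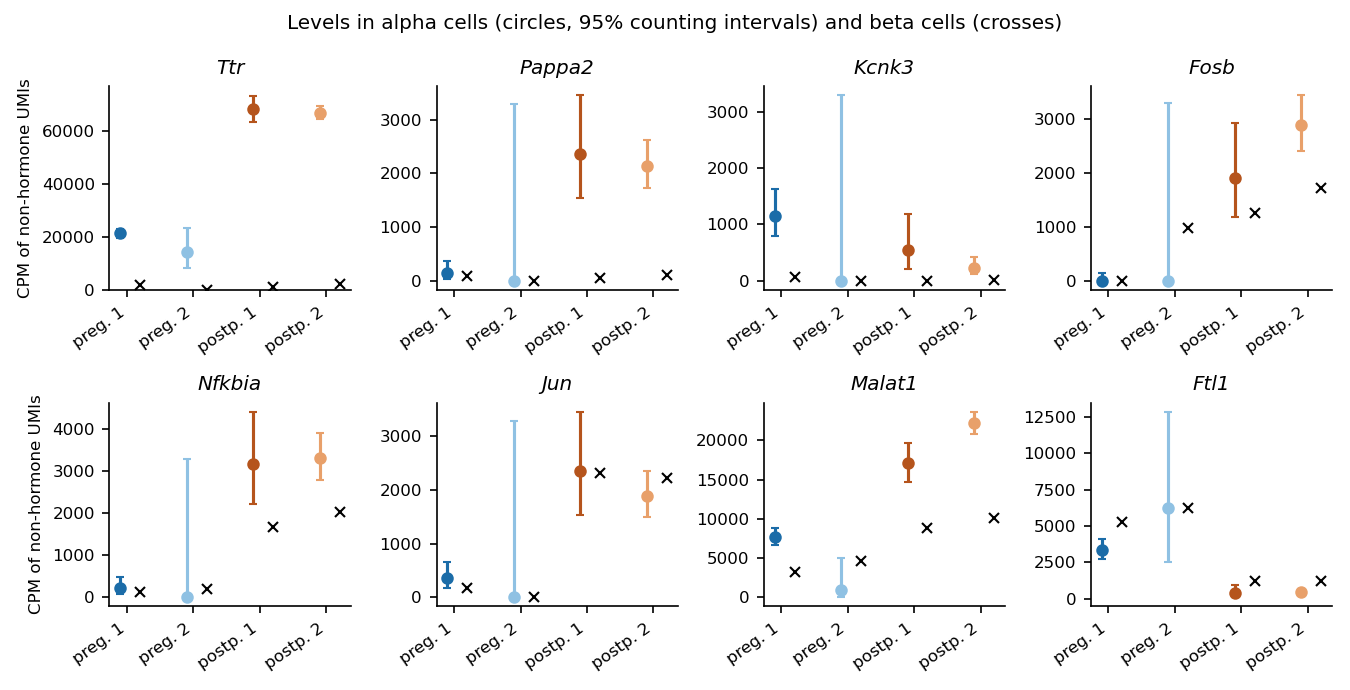
CPM of non-hormone UMIs (y axis) of 8 genes by library in alpha cells (circles, with exact 95% Poisson intervals) and beta cells (crosses). The Ttr circles sit at 21293 and 14273 CPM for pregnancy and at 68095 and 66656 CPM after birth; for Pappa2, Fosb, Nfkbia and Jun pregnant 2 is at 0 with an interval that reaches 3291 CPM.

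No other marker passed this test. Pappa2 was at 144, 0, 2361 and 2144 CPM. It had 4 UMIs in 3 cells of pregnant 1, and 26 and 93 UMIs in 18 and 44 cells of the postpartum libraries, 16.4 times (5.68 to 64.6) and 14.9 times (5.62 to 55.8) the level of pregnant 1. In pregnant 1 Pappa2 was near its beta-cell level (78.3 CPM), whereas in the postpartum libraries beta cells had 53.1 and 101 CPM. The log2 difference over 4 libraries was 3.91 ± 2.15 (limma adjusted p = 0.878). With a glucagon limit of 5% it was 0.12, since 1 of the 3 cells that this limit adds to pregnant 2 held 27 Pappa2 UMIs. Kcnk3 was at 1153, 0, 545 and 231 CPM and Sfrp5 at 396, 0, 636 and 323 CPM. For Kcnk3 the highest value was that of pregnant 1, and its difference was 0.38 ± 1.78 with all libraries and -1.44 ± 0.62 without pregnant 2, where the limma adjusted p was 0.73.

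Outside the markers, 569 of the 1729 genes had both postpartum values above both pregnant ones (32.9%) and 57 had both below (3.3%). That excess was not seen without pregnant 2, and its source was not tested. The median difference was 0.81 over the 1729 genes, and -0.04 over the 2290 genes tested without that library. Of those 2290 genes, 808 lay above pregnant 1 in both postpartum libraries (35.3%) and 804 below (35.1%). The genes named next had the largest differences among those that did not overlap. None passed the threshold with all libraries (limma adjusted p = 0.878 for each), so only their values are given.

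Fosb had the largest difference (4.61), followed by Nfkbia (4.23), H3f3b (4.01), Pappa2 (3.91), Xist (3.46), Gadd45b (3.45), Ccnd2 and Hspa1a (3.41 for both), Jun (3.37) and Hspa5 (3.24). Fosb (chr7:19302696-19310118), a subunit of the AP-1 transcription factor, had 0, 0, 21 and 125 UMIs. Its postpartum levels, 1907 and 2882 CPM, were 17.6 and 26.7 times the 3-count limit of pregnant 1. Nfkbia (chr12:55489409-55492647), the inhibitor of NF-kappa-B, was at 216, 0, 3178 and 3320 CPM. Jun (chr4:95049036-95052222), another AP-1 subunit, was at 360, 0, 2361 and 1891 CPM. The choice of these genes put pregnant 1 below both postpartum libraries for each, and pregnant 2 had no UMI of any of them. Its 3-count limit of 2676 CPM lies above the postpartum levels of Jun and the postpartum 1 level of Fosb, and below the others. The exact Poisson interval for a count of 0 there reaches 3291 CPM, which only the postpartum 2 level of Nfkbia exceeds. Both limits cover counting error alone. Alpha cells of pregnant 2 held a mean of 5.96 UMIs per detection, against 1.25 to 1.59 elsewhere, which neither limit allows for. Whether pregnant 2 was lower for these genes therefore cannot be decided.

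Gadd45b, a growth arrest and DNA damage-inducible gene, was at 0, 0, 1090 and 899 CPM. Hspa1a (chr17:34969359-34972156), an inducible heat shock protein, was at 0, 0, 817 and 1130 CPM, and its reads may be split with those of its near-identical neighbour Hspa1b. The endoplasmic reticulum chaperone Hspa5 was at 1405, 0, 4177 and 3043 CPM. The others were the histone H3.3 gene H3f3b at 973, 0, 6719 and 4012 CPM, the cyclin Ccnd2 at 2126, 0, 4994 and 4865, and the X-inactivation RNA Xist at 396, 0, 2088 and 2651. The choice of these 6 genes put pregnant 1 below both postpartum libraries. The smallest ratio to pregnant 1 was 2.17, that of Hspa5 in postpartum 2.

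With pregnant 2 left out and only genes of at least 20 UMIs tested, limma called 4 of 824 genes (0.485%): Fosb (4.61, adjusted p = 0.043), Nfkbia (3.40, adjusted p = 0.043), Pappa2 (3.27, adjusted p = 0.0448) and Ttr (1.66, adjusted p = 0.0448), all higher postpartum. This setting was chosen after the data were seen, and it sets 1 pregnant library against 2. Fosb, Nfkbia and Pappa2 met the minimum only through the postpartum libraries, where they were high. They had 0, 6 and 4 UMIs in pregnant 1 and none in pregnant 2, whereas Ttr had 591 in pregnant 1. Without the minimum of UMIs the adjusted p of the first 3 genes was 0.353.

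The promoters of Hspa1a (chr17:34972107-34972406, minus strand) and Jun (chr4:95052173-95052472, minus strand) are shown. Of the 10 highest genes, 9 had a promoter sequence at hand and were searched over the same 300 bases, and Ccnd2 had none. Among the 9, Hspa1a and Jun were the matches to the heat shock element core, GAANNTTC. Capitals mark the match.
Hspa1a: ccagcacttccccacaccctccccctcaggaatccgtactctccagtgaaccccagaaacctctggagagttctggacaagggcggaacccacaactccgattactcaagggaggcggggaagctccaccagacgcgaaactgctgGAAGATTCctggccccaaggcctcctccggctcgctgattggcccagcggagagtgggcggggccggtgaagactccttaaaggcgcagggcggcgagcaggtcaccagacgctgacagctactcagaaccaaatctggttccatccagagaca
Jun: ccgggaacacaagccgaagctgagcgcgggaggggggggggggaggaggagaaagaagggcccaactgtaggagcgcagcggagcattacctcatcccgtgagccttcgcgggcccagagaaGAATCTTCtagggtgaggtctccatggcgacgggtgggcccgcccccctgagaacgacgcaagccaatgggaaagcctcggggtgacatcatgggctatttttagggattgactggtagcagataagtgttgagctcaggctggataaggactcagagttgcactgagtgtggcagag
The core was searched on both strands, and 7.86% of all promoters hold it. The AP-1 letters TGANTCA were found in 1 of the 9 promoters, that of Hspa5, and in 7.81% of all, and the cyclic AMP response element TGACGTCA in 0 of 9 and in 1.79% of all. The TATA letters TATAAA were found in 4 of 9 and in 13.6% of all. These are matches of letters in a short window and do not show binding.

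For the 10 genes lowest postpartum, 1 cell of pregnant 2 held all the UMIs that library had of the gene. That was 7 to 24 UMIs for Slc25a5, Lancl1, H3f3a, Ube2w, Eya3, AI837181, Hadha and Ip6k1, 7 for Ftl1 and 3 for Tmem59. Slc25a5 and H3f3a were also at 576 CPM in pregnant 1, and their differences were -2.06 and -2.29 without pregnant 2 (limma adjusted p = 0.73 for both). The mitochondrial fatty acid oxidation enzyme Hadha, for instance, was at 180, 21409, 90.8 and 92.2 CPM, with its 24 UMIs of pregnant 2 in 1 cell. Ftl1, the ferritin light chain, and Tmem59, a Golgi and endosome protein, had 93 and 62 UMIs in pregnant 1. Ftl1 was at 3351, 6244, 363 and 438 CPM, 0.108 times (0.0289 to 0.287) and 0.131 times (0.0753 to 0.216) its pregnant 1 level. Tmem59 was at 2234, 2676, 90.8 and 461 CPM. In beta cells Ftl1 was ordered alike, at 5241, 6206, 1195 and 1237 CPM.

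Gene lists were described by counts and medians, beside those of all tested genes. Of 18 immediate early genes tested, 15 had both postpartum values above both pregnant ones and 0 below, with a median difference of 2.76 against 0.81 for all genes. Without pregnant 2, 16 of 20 lay above and 2 below, with a median of 1.59 against -0.04. Of all genes, 32.9% lay above and 3.3% below with all libraries, and 35.3% and 35.1% without pregnant 2. The zinc finger factor Egr1 was at 252, 0, 1362 and 1868 CPM and Fos at 216, 0, 1543 and 1591. The 2 below were Ier2 at 288, 0, 90.8 and 184 CPM and Btg1 at 180, 0, 90.8 and 115 CPM. The list summed to 3819, 4460, 17251 and 17315 CPM in alpha cells and to 2690, 4073, 12509 and 13360 in beta cells, so both cell types were higher postpartum in their sums. These genes are known to respond to tissue dissociation as well as to signals in the animal, and handling of the libraries and the state of the mice cannot be told apart here.

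Heat shock and ubiquitin genes came next among the stress lists. Of 15 tested, 8 lay above without overlap and 0 below, and without pregnant 2, 12 of 17 lay above and 3 below, with a median of 0.69. Over all genes the shares were 32.9% above and 3.3% below, and without pregnant 2, 35.3% and 35.1%. The polyubiquitin gene Ubb was at 4540, 4460, 13074 and 11528 CPM, with its 5 UMIs of pregnant 2 in 1 cell. The chaperone Hsp90ab1 was at 1585, 0, 3723 and 2905 CPM. Of 7 long noncoding RNAs tested, 5 lay above and 0 below, with a median of 0.77 without pregnant 2. Malat1, a nuclear RNA, was at 7674, 892, 17069 and 22203 CPM (limma adjusted p = 0.558), and the imprinted Meg3 at 2342, 892, 8262 and 10398. The long noncoding list summed to 11457, 5352, 28872 and 37374 CPM in alpha cells and to 6919, 4655, 17183 and 20387 in beta cells.

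Ribosomal protein genes ran the other way against pregnant 1. Without pregnant 2, 43 of 60 lay below pregnant 1 in both postpartum libraries and 3 above, with a median of -1.0. Of all genes, 35.1% lay below and 35.3% above without pregnant 2, and 3.3% and 32.9% with all libraries. With all libraries 5 lay below without overlap and 2 above, and the median was 0.53, so the sign of the median turned with pregnant 2. Rpl13a was at 5116, 0, 1271 and 1729 CPM and Rplp1 at 3783, 0, 999 and 1268. The list summed to 66366, 18733, 22880 and 39081 CPM in alpha cells and to 42129, 13770, 17634 and 28920 in beta cells. Oxidative phosphorylation genes had 23 of 47 below pregnant 1 and 6 above, with a median of -0.31. Cox8a was at 1045, 0, 1090 and 1245 CPM.

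**Figure D4:**
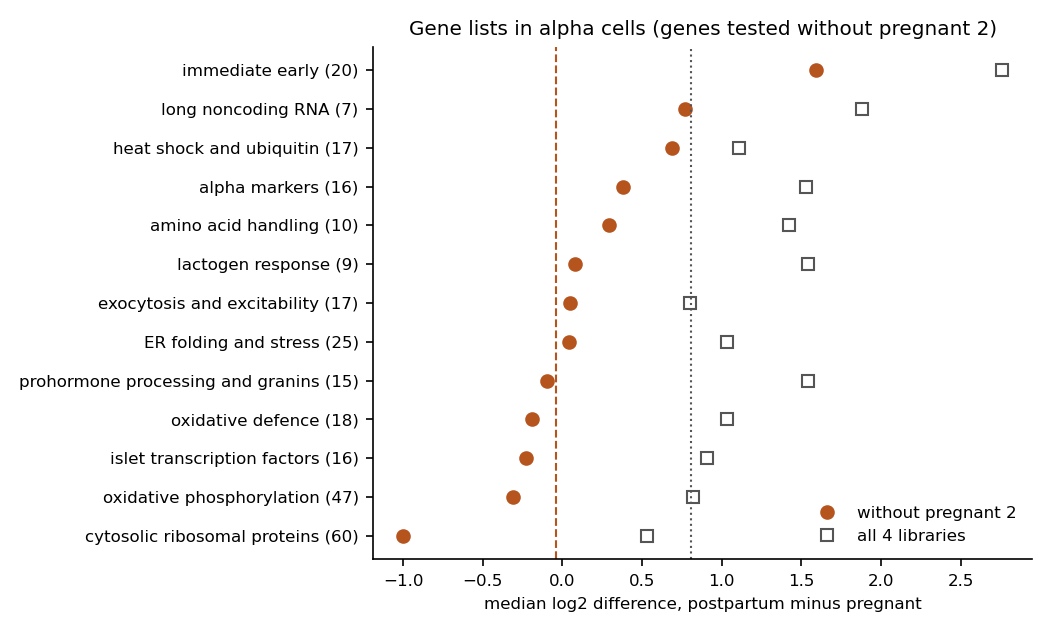
Median log2 difference, postpartum minus pregnant (x axis), of each list with at least 7 tested genes (y axis, with the number tested without pregnant 2 in brackets), without pregnant 2 (filled circles) and with all 4 libraries (open squares). The dashed line is the median of all genes without pregnant 2 (-0.04) and the dotted line that with all libraries (0.81). Immediate early genes lie farthest right (1.59 and 2.76) and ribosomal protein genes farthest left (-1.0 and 0.53).

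The list of alpha markers had 9 of 16 tested members above without overlap and 0 below, with a median of 1.53 against 0.81 for all genes. Without pregnant 2, 9 lay above and 3 below, with a median of 0.38 against -0.04. Beside these and the counts that follow, 32.9% of all genes lay above and 3.3% below with all libraries. Without pregnant 2 those shares were 35.3% and 35.1%, and several of the lists below lie near them. Lists of alpha-cell function are described without pregnant 2 first, where their medians ran from -0.23 to 0.29. Prohormone processing and granin genes had a median of -0.10 without pregnant 2, with 5 of 15 above pregnant 1 and 5 below. Chga, a granule matrix protein, was at 6197, 16949, 8262 and 10306 CPM, and Pcsk1n, a convertase inhibitor, at 4035, 0, 3087 and 2444. The pregnant 2 value of Chga came from 19 UMIs in 2 cells. Islet transcription factors had a median of -0.23, with 6 of 16 above and 6 below, and exocytosis and excitability genes 0.05, with 7 of 17 above and 5 below. The potassium channel subunit Abcc8 was at 649, 0, 726 and 1014 CPM. Amino acid handling genes had a median of 0.29, with 6 of 10 above and 4 below, and the glutamate dehydrogenase gene Glud1 was at 360, 0, 545 and 576 CPM. Endoplasmic reticulum folding genes had a median of 0.04, with 12 of 25 above and 6 below. Oxidative defence genes had -0.19, with 6 of 18 above and 7 below. With all libraries the medians of these lists were 1.54 for prohormone processing, 1.42 for amino acid handling, 1.03 for endoplasmic reticulum folding, 1.03 for oxidative defence, 0.91 for islet transcription factors and 0.80 for exocytosis, against 0.81 for all genes.

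The change after birth was also set against that of beta cells of the same libraries. Of 2503 genes tested, limma called 0 as changing differently in alpha and beta cells (0%), with 71 at an unadjusted p under 0.05. Without pregnant 2, limma called 1 of 3029 (0.033%), Prlr, with a difference of -2.66 ± 0.61 (adjusted p = 0.0443). The prolactin receptor had 2, 0, 0 and 3 UMIs in alpha cells (72.1, 0, 0 and 69.2 CPM), at or below the 3-count limit in each library. In beta cells it was at 1313, 1164, 6241 and 7094 CPM. Alpha cells of the 3 deeper libraries thus held next to no Prlr transcript at this depth, pregnant 2 was too shallow to tell, and the values that differ between groups are those of the beta cells.

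The lactogen response list, to which Prlr belongs, had 9 tested members in alpha cells, 4 above without overlap and 0 below, beside 32.9% and 3.3% of all genes. Without pregnant 2 the counts were 4 and 1, beside 35.3% and 35.1% of all genes, and the median was 0.08. Ccnd2, a target of this pathway in beta cells, is given above. The insulin receptor substrate Irs2 was at 72.1, 0, 1090 and 738 CPM in alpha cells and 44.2, 0, 106 and 297 in beta cells, and Stat3 was at 324, 0, 999 and 1014 CPM in alpha cells. Chgb, a granin of this list, was at 865, 0, 999 and 646 CPM in alpha cells and 4860, 12995, 6905 and 6142 in beta cells. With genes of at least 20 UMIs and without pregnant 2, limma called 1 gene of 824 between the cell types, Srxn1 (2.99 ± 0.60, adjusted p = 0.00125), which encodes the enzyme that repairs oxidised peroxiredoxin. Its adjusted p was 0.712 with all libraries and 0.105 without pregnant 2 and without the minimum of UMIs, and it met the minimum through the postpartum libraries. Srxn1 was at 36, 0, 999 and 807 CPM in alpha cells against 197, 194, 106 and 263 in beta cells.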

How the data were processed

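Single-cell inDrop libraries of dissociated islets were analysed for 2 pregnant and 2 postpartum samples. The deposited files hold log2(CPM + 1) for each cell, made by the authors. Per the submitters' processing notes, the tools were Partek 8.0 and Bowtie 1.1.1 and the builds GRCm38 and mm10, with no role given. The non-pregnant file is on another scale and only its cells were counted. Which counter, annotation and filters were applied is not given in the sources used here.

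Values were made linear, and each cell was divided by its smallest step to give whole UMIs (tolerance 0.1). All deposited cells were kept; removing doublets called by Scrublet in scanpy 1.11.5 was an alternative. Alpha-cell UMIs were summed per library and divided by its non-hormone UMIs, without 7 hormones (Gcg, Ins1, Ins2, Iapp, Sst, Ppy, Pyy) and Rn45s. Pooling weights cells by depth. Libraries were compared with limma 3.58.1 (R 4.3.3, trended prior, two-sided) on log2(CPM + 100), which understates changes of low genes, over genes whose mean reached 100 CPM, with Benjamini-Hochberg adjustment at 0.05. Beta cells were chosen by the mirror rule, and in pregnant 1 these include barcodes with low levels of several hormones. The difference between cell types was fitted on alpha minus beta values within libraries. A simulation, given next, put changes only in genes well above the limit of 100 CPM. It did not copy the many UMIs per detection of pregnant 2, so recovery in the real data may be lower. The same script was tested on simulated counts: with all libraries and Poisson spread it recovered 16.5% of 4-fold and 51% of 8-fold changes (4 false calls), and without pregnant 2, 54% and 79.8% (16 false calls). With overdispersed counts it recovered 8.51% and 35.5% (0 false calls), and without pregnant 2, 15.6% and 38.7% (1 false call).

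The members, lists and tests were chosen with earlier results of these data known. The text names the 5 markers, called genes, the 10 highest and 10 lowest genes that did not overlap and had at least 20 UMIs, the 12 genes highest over beta cells, and, of each list, from the up to 4 tested members with most UMIs. Irx2, Slc2a2, Trpm5, Ier2, Btg1, Srxn1 and Prlr were added after their values were seen. Lists are described without a test. Some results are not reported here. Sequences and coordinates are from RefSeq GRCm38.p6.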

Additional observations from a re-analysis of the deposited data

How the results depend on the processing

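With all libraries the count of genes called, 1, became 2 with a constant of 20 (Malat1 added), with all UMIs as the denominator (Gnas added, lower postpartum) and with a limit of 5% glucagon (Malat1 added). It became 0 with median centring, with all libraries thinned to the UMIs of the smallest and with a prior without a trend, and 211 with voom weights (114 higher, 97 lower). Leaving out each library in turn gave 1 to 596 calls; the 596 came without pregnant 1, where pregnant 2 alone stood for pregnancy, and no other left-out library changed the count. Without pregnant 2 and with at least 20 UMIs it was 4. The call of Ttr was lost with median centring (1.04), voom weights (2.06), thinning (2.06) and the prior without a trend (1.94), and its difference ran from 1.04 to 2.75 (with a 20% glucagon limit) over the settings run. For the alpha minus beta change, the count of 0 became 1 without pregnant 2 in genes of at least 20 UMIs, and 0 to 569 when each library was left out, 569 again without pregnant 1, 1 without pregnant 2 (Prlr) and 2 without postpartum 1. No cause of these differences was tested.

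Whether the replicate numbers pair the libraries could not be decided. The deviations of pregnant 1 and postpartum 1 had r = -0.0656 over 1729 genes. The deviation of pregnant 1 depends on the other pregnant library, where only 172 non-hormone genes were detected in alpha cells. A low r there cannot show that the libraries were unpaired. A replicate block gave 1 and 0 calls, as without it.

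Kcnk3 turned below 0 with a constant of 500 (-0.06), all UMIs (-0.10), median centring (-0.52), voom (-1.10), thinning (-2.40) and without pregnant 2 in genes of at least 20 UMIs (-1.44), and ran from -1.44 to 2.21 over left-out libraries. Sfrp5 turned with thinning (-2.12). Of 519 other settings of 23 named genes' differences, 9 turned sign, all of these 2 genes, and 33 passed the threshold that the main value missed.

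The share of alpha cells moved beyond its interval to 4.26% in pregnant 1 with a 20% glucagon limit. The glucagon share moved with a 5% limit to 26.8% and 31.9% in pregnant 1 and 2, and with a 20% limit to 31.2%, 42% and 46.3% in pregnant 1, pregnant 2 and postpartum 2. It moved in postpartum 2 to 45% at 3 times and 46.1% at 10 times insulin, in pregnant 1 to 28.3% at 10 times, and in pregnant 2 to 29.5% with at least 100 UMIs and 32.3% without Scrublet doublets. In each of these settings both postpartum values stayed above both pregnant ones. Depth limits pregnant 2 most: 1 UMI there is 892 CPM.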

Other observations

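Metallothioneins, which bind zinc and copper, differed in order between the cell types: Mt1 was at 1585, 0, 2633 and 2352 CPM in alpha cells and at 5291, 7370, 2948 and 2150 in beta cells (pregnant 1, pregnant 2, postpartum 1, postpartum 2), and Mt2 at 2306, 8921, 3813 and 3505 CPM against 5960, 1746, 3320 and 1719. The pregnant 2 value of Mt2 in alpha cells came from 10 UMIs of 1 cell. Against pregnant 1, B2m, the light chain of class I molecules, was at 1513 CPM in alpha cells and 272 and 161 CPM in the postpartum libraries, with 0 UMIs in pregnant 2. In beta cells B2m was at 2252, 3297, 133 and 179 CPM. The class I heavy chain H2-K1 was at 2774, 892, 3087 and 1775 CPM in alpha cells. Of 7 antigen presentation genes tested without pregnant 2, 4 lay below pregnant 1 in both postpartum libraries and 2 above. The shares over all genes were 35.1% below and 35.3% above. The glycolytic genes Pkm (865, 0, 272 and 277 CPM) and Aldoa (757, 0, 90.8 and 277 CPM) both lay below pregnant 1. Spp1, which encodes osteopontin and is a ductal marker, had 33 UMIs in 21 alpha cells of pregnant 1 and 0, 0 and 1 UMIs in the other libraries, and stood at 841, 0, 0 and 16.8 CPM in beta cells. A count of 0 in pregnant 2 allows up to 2676 CPM in its alpha cells by counting error alone. None of these genes passed the limma test with all libraries.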
